A study of Mus musculus with 38 samples.

Results

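LAP2B binding to the genome was compared between naive QKO and naive LBRKO mouse embryonic stem cells (mESCs). Both lines lack the lamin B receptor (LBR), so the comparison shows what differs with the lamins where LBR is absent. It rests on the 6 libraries, of 38 samples in the series, whose labels name the LAP2B antibody, the naive stage and one of these genotypes, with 3 libraries each. LAP2B is an inner nuclear membrane protein made by the gene Tmpo, and CUT&RUN with its antibody cuts out and sequences DNA that lies close to it.

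QKO cells lack Lmna, Lmnb1, Lmnb2 and Lbr, and LBRKO cells lack Lbr alone. The supplement of the paper lists a frameshift and an in-frame deletion in Lbr for the QKO clone. For an LBRKO clone it lists frameshift deletions alone. The paper reports no detectable LBR by immunostaining in either genotype. Both lines were kept in 2i + LIF medium without serum or feeder cells, which holds mESCs in the naive state. Neither received another treatment. Further conditions are used for reference: naive WT and TKO mESCs, the latter without Lmna, Lmnb1 and Lmnb2 but with LBR; EpiLCs (epiblast-like cells made from mESCs with FGF and activin A) of the QKO and LBRKO genotypes; and naive WT libraries made with an LMNB1 or a non-specific antibody (IGG), neither of which was run in a knockout line. Each of these groups has 3 libraries. The QKO line is 1 clone, derived from TKO cells by disrupting Lbr, whereas LBRKO cells were derived from WT mESCs of a littermate. The starting lines differ in karyotype, with an extra chromosome 8 and partial loss of Y in TKO and, in WT, subpopulations that lost Y or gained chromosomes 6 and 8. Lamin loss, line of origin, clone and karyotype cannot be told apart in this comparison. The reads are genomic DNA, so neither the knockouts nor the stem cell identity can be checked from transcripts in these tables. The labels give 3 replicates of cells for each condition but do not say that they were separate cultures, so the p-values measure the spread between these libraries, which may be technical.

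The nuclear lamina is a meshwork of lamins under the inner nuclear membrane, and large, mostly silent and AT-rich stretches of chromatin lie against it. LBR is a membrane protein that also holds heterochromatin at the nuclear edge, and it is the main such tether besides the lamins in early embryonic cells. LAP2B binds both the membrane and chromatin, so its signal over a gene is taken as a readout of how close that gene lies to the nuclear envelope. Tmpo also makes LAP2-alpha, an isoform found in the nucleoplasm. The paper states that its antibody can recognize this isoform too, although it detects LAP2B far more readily in mESCs. The part of LAP2-alpha in the signal was not tested here. Genes in gene-dense, GC-rich and active chromatin usually lie in the interior.

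Values are given on 2 scales. The first, called the spike-in scale, keeps the signal as deposited, summed over the 1 kb bins that a gene touches and scaled to yeast DNA added to each sample, so it retains differences in total signal between libraries. The relative scale divides each library by its median over the 70381 genes tested, so a gene at 1 equals the median gene of its library, and a change on it is a change in share. "Rose" and "fell" below mean called by limma at a Benjamini-Hochberg adjusted p under 0.05 on the relative scale, QKO against LBRKO. Long genes touch more bins, so levels are compared between genes only per bin.

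To show what the sequence of the strongest responders looks like, 250 bases at the promoter are given for the 2 genes that rose most and the 2 that fell most. They are the nearest bases before the RefSeq start that hold no annotated exon, read from GRCm39, 5′ to 3′ on the strand of the gene. CG dinucleotides are in capitals. Mllt6 (an AF10-related chromatin protein) and Zbtb7a (a zinc finger repressor) rose, and Klrc2 (a natural killer cell receptor) and Pthlh (parathyroid hormone-like hormone) fell.
Mllt6, chr11:97553772-97554021, plus strand: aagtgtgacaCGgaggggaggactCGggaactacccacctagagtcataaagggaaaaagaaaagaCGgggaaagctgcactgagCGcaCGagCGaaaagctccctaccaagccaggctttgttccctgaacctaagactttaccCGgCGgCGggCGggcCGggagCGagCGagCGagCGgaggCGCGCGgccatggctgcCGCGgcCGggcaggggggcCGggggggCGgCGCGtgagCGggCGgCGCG
Zbtb7a, chr10:80971805-80972054, plus strand: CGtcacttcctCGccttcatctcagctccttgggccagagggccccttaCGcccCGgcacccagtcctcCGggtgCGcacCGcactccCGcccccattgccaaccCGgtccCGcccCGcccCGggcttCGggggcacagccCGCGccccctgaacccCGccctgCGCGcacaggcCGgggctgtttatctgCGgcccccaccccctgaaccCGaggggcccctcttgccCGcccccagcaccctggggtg
Klrc2, chr6:129637653-129637902, minus strand: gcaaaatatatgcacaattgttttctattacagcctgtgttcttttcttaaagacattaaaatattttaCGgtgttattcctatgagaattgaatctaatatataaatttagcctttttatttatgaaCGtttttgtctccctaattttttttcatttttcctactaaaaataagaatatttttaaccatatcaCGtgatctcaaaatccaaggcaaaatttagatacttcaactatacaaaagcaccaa
Pthlh, chr6:147165682-147165931, minus strand: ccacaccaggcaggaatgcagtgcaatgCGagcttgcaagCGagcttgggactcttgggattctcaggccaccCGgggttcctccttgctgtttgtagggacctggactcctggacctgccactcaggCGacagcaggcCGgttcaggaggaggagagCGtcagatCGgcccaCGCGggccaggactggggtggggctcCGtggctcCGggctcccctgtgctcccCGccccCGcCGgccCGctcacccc
The stretches held 29, 22, 3 and 15 CG dinucleotides and were 68.0%, 75.2%, 26.0% and 68.4% GC, in the order shown. Of 27025 RefSeq promoters (table build GRCm38.p6, the 250 bases before the start), 93.6%, 85.4%, 29.6% and 72.5% held fewer. The stretch of Zbtb7a lies inside the annotated gene, outside its exons. High CG content was thus seen on both sides of the comparison. Among the 10 largest rises, 9 had a RefSeq promoter, with 5 to 40 CG and a median of 16. The 10 largest falls had 0 to 26 and a median of 5.5, beside a median of 6 over all promoters. The rises and falls were chosen among protein-coding genes, which hold more CG. In 4 equal classes of tested protein-coding genes by CG, the second ran from 4 to 12 and the third from 12 to 20.

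The 6 libraries yielded 21908277 to 41198406 reads over the gene table, with a median of 61 to 105 reads per tested gene. Replicates of a genotype differed by more than counting error (chi-square per degree of freedom 4.06 to 11.4), and no pair was a duplicate.

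Total LAP2B signal was lower in QKO. The library level, the log2 of mean gene signal on the spike-in scale, was 2.27, 1.96 and 2.21 in QKO and 3.54, 3.69 and 3.95 in LBRKO. All QKO libraries lay below all LBRKO libraries. The difference of means was -1.58, and on the linear scale QKO held 4.45 ± 0.492 and LBRKO 13.4 ± 1.95 (SD, n = 3), a ratio of 0.333. IGG in WT cells stood at 2.32 ± 0.481 on the same scale. The exact permutation p was 0.1 (two-sided), the smallest that 3 against 3 libraries allow, and it stayed 0.1 after adjustment over the 4 library measures.

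Signal in QKO no longer favored genes with much LMNB1. To measure this, genes were ranked by WT LMNB1 per bin and parted into 4 classes of equal size. The lamina contrast is the log2 of mean per-bin signal in the class with most LMNB1 over that in the class with least. It was -0.81, -0.63 and -0.75 in QKO and 1.07, 0.65 and 0.85 in LBRKO. The sign thus differed between the genotypes in every library. The means were -0.73 ± 0.09 and 0.86 ± 0.21 (SD, n = 3), apart by -1.59 (exact permutation p = 0.1). With classes from LMNB1 in EpiLCs the difference was -0.937. WT stood at 1.68, TKO at 0.71 and IGG at 0.27, so QKO was the lone naive group below 0.

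The rank correlation across genes with WT LMNB1 per bin turned from 0.266 ± 0.090 in LBRKO to -0.247 ± 0.0054 in QKO (SD, n = 3). That with IGG per bin was 0.592 ± 0.010 in QKO and 0.521 ± 0.058 in LBRKO. These are correlations across genes, which are not independent replicates. The differences were -0.513 for LMNB1 and 0.071 for IGG, each with an exact permutation p of 0.1, adjusted 0.1. Without division by bins they were -0.145 for LMNB1 and -0.029, the other way, for IGG.

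**Figure D1:**
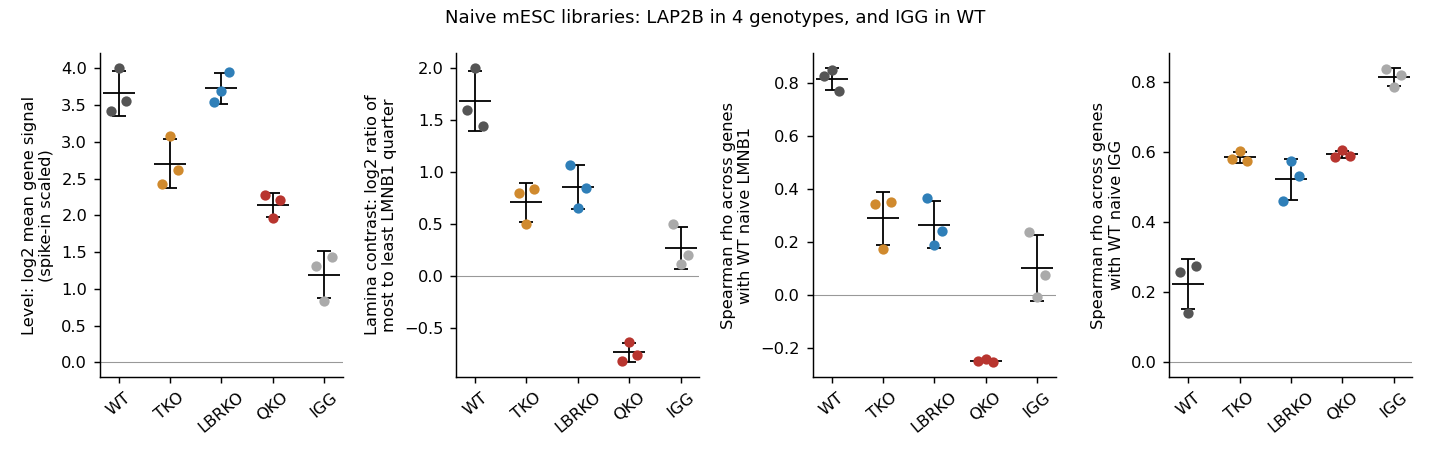
Library level (log2 mean gene signal, spike-in scale), lamina contrast (log2 ratio) and rank correlations with WT LMNB1 and WT IGG (rho) for naive LAP2B libraries of 4 genotypes and for IGG in WT. Points are libraries and bars mean ± SD; the 3 QKO libraries lie between -0.81 and -0.63 in lamina contrast, while LBRKO lies between 0.65 and 1.07.

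In which part of the genome the signal was lost was read from genes ranked by WT LMNB1 and parted into 10 classes of about 7031 genes. In the class with most LMNB1, QKO held 0.240 ± 0.030 per bin on the spike-in scale, LBRKO 1.08 ± 0.166, WT 1.23 ± 0.333, TKO 0.564 ± 0.105 and IGG 0.147 ± 0.039 (SD, n = 3). In the class with least, QKO held 0.293 ± 0.048, LBRKO 0.386 ± 0.086, WT 0.261 ± 0.025, TKO 0.244 ± 0.084 and IGG 0.0946 ± 0.0177. The profile of LBRKO climbed from the least to the most LMNB1 class, and that of QKO did not. QKO and LBRKO libraries overlapped in the least class, where the lowest LBRKO library (0.287) lay under the highest QKO library (0.330). They did not overlap in the most class, where the highest QKO library reached 0.260 and the lowest LBRKO library 0.970.

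Part of the genes in QKO had a level under that of the background antibody. The QKO mean lay under the WT IGG mean for 14333 of 70381 genes (20.4%), against 41 (0.0583%) for LBRKO, 0.419% for TKO and 0.0853% for WT. In the class with most LMNB1 the share for QKO was 34.3%, in the ninth 38.8%, and in the class with least 8.12%. All 3 QKO libraries lay under all 3 IGG libraries for 753 genes (1.07%). IGG was not run in QKO or LBRKO cells, so the part of background in the QKO signal was not tested.

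Changes per gene followed the same order. On the relative scale the median change was 0.52 in the class with least LMNB1, 0.00 in the fourth and -0.79 in the class with most, and it went down at each step between. Of all 70381 genes, 14629 (20.8%) rose and 23930 (34.0%) fell, with a median of -0.25 on the log2 scale. In the class with least LMNB1, 3433 of 7032 genes rose and 373 fell. In the class with most, 102 rose and 4537 fell. The libraries of the genotypes did not overlap for 16102 genes with QKO higher (22.9%) and 25567 with QKO lower (36.3%).

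The direction of a change depends on what is held constant. On the spike-in scale 2157 genes (3.06%) were called higher and 54998 (78.1%) lower, with a median of -1.35, and the class medians ran from -0.63 to -1.89. All 23930 genes that fell in share were also lower on the spike-in scale. Of the 14629 that rose in share, 2157 were higher, 9452 were not called and 3020 were lower on the spike-in scale. Scaling each library by its mean gave 17643 rises and 17374 falls, and scaling by the least-LMNB1 class of 4 gave 7006 and 45008. These scales hold the same values divided by a constant for each library. The order along LMNB1 is therefore common to them, and the falls shared between them are not separate support. The count of rises is not common to them. The 2157 also rest on single libraries, with 1117 higher without LBRKO replicate 1 and 1331 without QKO replicate 1.

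**Figure D2:**
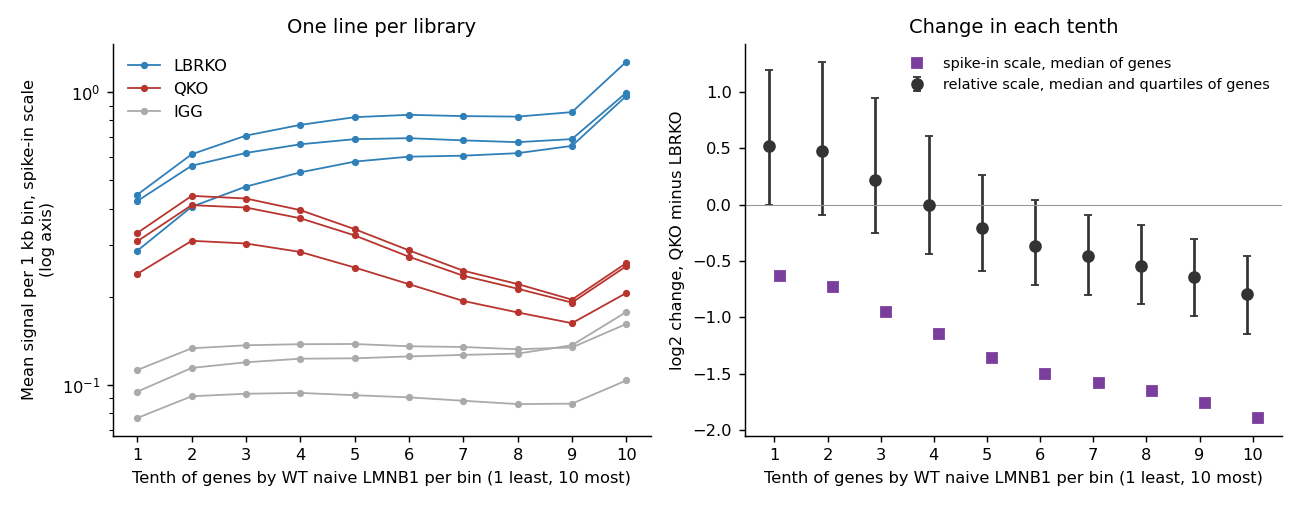
Left, mean signal per 1 kb bin (spike-in scale, log axis) in 10 classes of genes by WT LMNB1, 1 line per library of LBRKO, QKO and WT IGG. Right, log2 change QKO minus LBRKO in each class on both scales, with the interquartile range of genes as bars on the relative scale; medians run from 0.52 to -0.79 and from -0.63 to -1.89.

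Base composition moved with the change as well. Across 70312 genes, the change correlated with LMNB1 per bin at rho -0.57, with GC content at 0.43, with IGG per bin at 0.20 and with the number of bins at -0.09 (descriptions across genes, which share libraries and neighborhoods). With 4 classes by each measure, among genes with least LMNB1 the median change went from -0.15 in the class lowest in GC to 0.96 in the class highest in GC. Among those with most LMNB1 it stayed between -0.75 and -0.52. The medians thus spread more widely along GC content among genes with little LMNB1. Genes of 50 or more bins had a median of -0.52, with 1214 rises and 5628 falls among 8372.

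The 10 largest rises among protein-coding genes of at least 10 bins, taken at least 1 Mb apart, were Mllt6, Zbtb7a, Prmt1 (an arginine methyltransferase), Hnrnpl (a splicing factor), Renbp (a renin-binding epimerase), Pkn3 (a protein kinase), Brd2 (a reader of acetylated histones), Mlec (malectin, an endoplasmic reticulum lectin), Septin1 (a septin) and Senp3 (a SUMO protease of the nucleolus). Mllt6 (ENSMUSG00000038437, chromosome 11, 97554022 to 97576289) was at 35.0, 26.7 and 31.7 in QKO and at 1.97, 4.05 and 3.27 in LBRKO, relative to the median gene. The rises and falls were chosen among genes whose libraries do not overlap, so that separation is fixed by the choice. The log2 change was 3.35 ± 0.16 (SE; adjusted p = 8.57e-24), and on the spike-in scale QKO held 42.7 ± 9.59 and LBRKO 11.3 ± 4.83 against 3.53 in IGG. Zbtb7a (ENSMUSG00000035011, chromosome 10, 80970299 to 80989180) was at 24.8, 16.8 and 20.9 in QKO and at 1.31, 2.51 and 2.86 in LBRKO, a change of 3.23 ± 0.18 (SE; adjusted p = 2.24e-21). Brd2 was at 9.62, 6.83 and 9.80 against 0.595, 1.46 and 1.18, a change of 2.99 ± 0.20. All 10 changes lay between 2.87 and 3.35, and all 10 genes were also called higher on the spike-in scale, by 1.52 to 1.99. The scales differ by a constant for each library, so these calls are not separate support. Of these genes, 9 belonged to the 2 classes with least LMNB1, and none lay on chromosome 6.

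The 10 largest falls were Klrc2, Pthlh, Slco1a1 (an organic anion transporter), Frmd4b (a scaffold at cell junctions), Rapgef5 (an exchange factor for Rap), Ipo8 (an importin), Ifi202b (an interferon-induced DNA sensor), Plxna2 (a semaphorin receptor), Pramel33 (a PRAME family member) and Suclg2 (a subunit of succinyl-CoA ligase). Klrc2 (ENSMUSG00000052736, chromosome 6, 129624459 to 129637652) was at 0.250, 0.204 and 0.233 in QKO and at 2.43, 1.58 and 1.61 in LBRKO. The change was -2.64 ± 0.23 (SE; adjusted p = 1.30e-14), and the spike-in mean in QKO, 0.314 ± 0.061, lay under that of IGG, 0.854. Klrc2, Slco1a1, Ifi202b and Pramel33 have near-identical relatives, so reads may be shared among copies and their values are uncertain. Pthlh (ENSMUSG00000048776, chromosome 6, 147153599 to 147165681) was at 0.900, 1.04 and 0.722 against 6.69, 5.41 and 4.91, a change of -2.57 ± 0.17 (SE; adjusted p = 8.32e-19). Rapgef5 (chromosome 12, 117480099 to 117723473) was at 20.3, 23.6 and 21.8 against 125, 94.6 and 106. Its spike-in means were 29.7 ± 1.26 in QKO, 380 ± 52.1 in LBRKO and 28.8 in IGG. Plxna2 was at 20.6, 21.8 and 20.1 against 107, 82.8 and 88.0, with spike-in means of 28.3 ± 1.92 and 323 ± 35.0 against 29.7 in IGG. The QKO spike-in mean also lay under that of IGG in Pthlh (1.20 against 1.75), Slco1a1 (2.74 against 4.58) and Frmd4b (41.7 against 44.3). The same held for Ifi202b (3.18 against 4.94), Pramel33 (1.18 against 4.11) and Suclg2 (26.0 against 28.8). In Ipo8 it lay above (22.2 against 9.24). How far background limits the size of the falls was not tested. All 10 changes lay between -2.64 and -2.08, and on the spike-in scale between -3.83 and -3.34. Of these genes, 7 belonged to the 2 classes with most LMNB1, and 6 lay on chromosome 6. The relative mean of LBRKO lay above that of WT in Pthlh, Frmd4b, Rapgef5, Ipo8 and Suclg2, and below it in the others. Ipo8 had a mean of 74.4 in LBRKO, 27.7 in WT, 13.5 in TKO and 16.3 in QKO. The paper reports that new LAP2B contacts appear in mutant cells, most clearly in LBRKO.

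**Figure D3:**
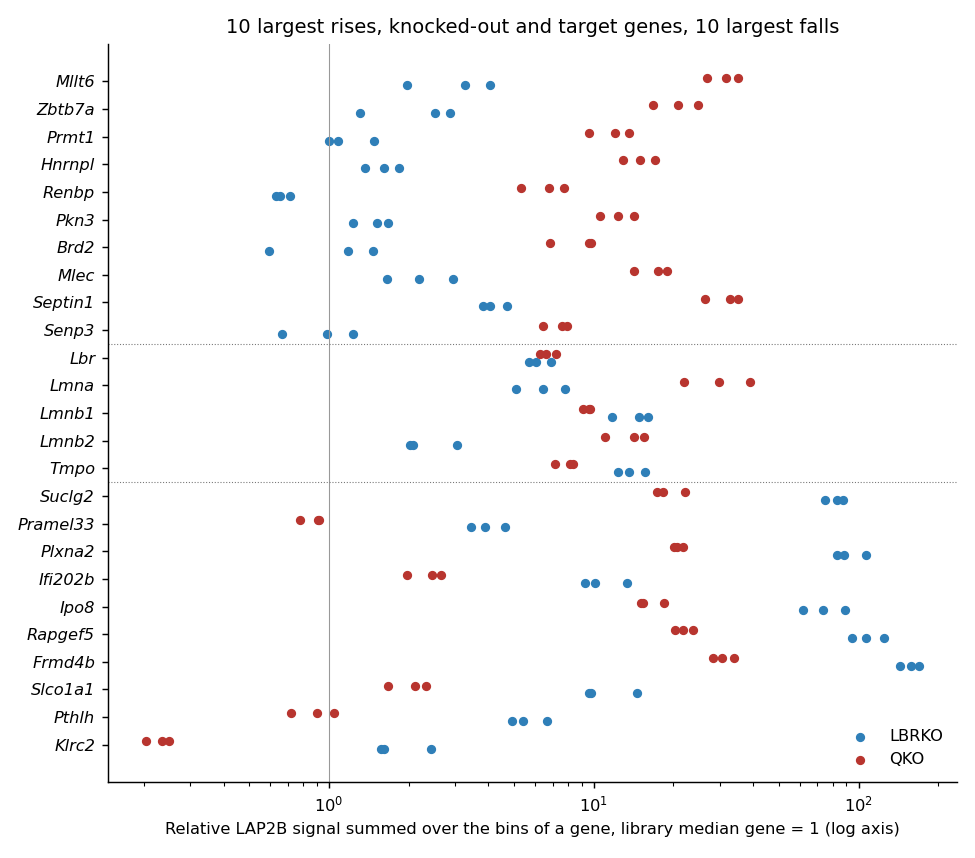
Relative LAP2B signal (library median gene = 1, log axis) in each QKO and LBRKO library over the 10 largest rises, the knocked-out and target genes, and the 10 largest falls. The 20 extreme genes were chosen for libraries that do not overlap, so the plot shows the size of their separation, while the 5 genes in the middle were chosen by name.

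The genes of the tethers themselves moved in different directions. Lmna, which makes lamins A and C, was at 38.98, 21.9 and 29.8 in QKO and 5.08, 6.44 and 7.78 in LBRKO, a rise of 2.20 ± 0.24 (SE). Lmnb2, a B-type lamin, was at 15.5, 11.0 and 14.2 against 2.08, 3.05 and 2.03, a rise of 2.48 ± 0.17. Both were also called higher on the spike-in scale, by 0.84 and 1.13. Lmnb1, the other B-type lamin, was at 9.14, 9.60 and 9.64 against 16.0, 11.7 and 14.8, a fall of -0.57 ± 0.12. Tmpo, the gene of LAP2B, was at 8.32, 7.17 and 8.12 against 15.7, 12.3 and 13.5, a fall of -0.81 ± 0.12. In Lmnb1 and Tmpo it was LBRKO that stood apart. The Lmnb1 means were 9.46 in QKO, 9.83 in WT, 9.96 in TKO and 14.2 in LBRKO. Those of Tmpo were 7.87, 8.10, 9.26 and 13.9 in the same order. In Lmna and Lmnb2 QKO had the highest mean of the naive genotypes. Lbr itself was at 7.18, 6.28 and 6.59 against 6.04, 5.68 and 6.89, and its change of 0.11 ± 0.14 was not called (limma, adjusted p = 0.514). It turned to -0.62 when libraries were scaled by the genes with least LMNB1. Coverage here is of genomic DNA and says nothing about the transcripts of these genes.

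Gene groups are described by how many of their tested members rose or fell and by their median change, beside 20.8% risen, 34.0% fallen and a median of -0.25 over all genes. Of 22 nuclear envelope genes, 11 rose and 8 fell, with a median of 0.33 that turned to -0.40 when scaled by the genes with least LMNB1 and was -1.01 on the spike-in scale. Prr14, a protein that tethers heterochromatin to lamins, was at 15.4, 10.4 and 15.3 in QKO and 1.79, 3.55 and 2.64 in LBRKO (log2 change 2.36). Sun2, which links the lamina to the cytoskeleton, rose by 1.84, and Banf1 and Emd, a chromatin-binding factor and its membrane partner emerin, rose by 1.74 and 1.53. Zmpste24, the protease that matures lamin A, fell by 1.38 on the log2 scale, and Tor1aip2, a membrane partner of torsin, fell by 1.23.

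Genes for H3K9 methylation and its readers split in the same way. Of 18, 9 rose and 6 fell, with a median of 0.37 that turned to -0.36 when scaled by the genes with least LMNB1 (spike-in -0.98). Without the 3 members on chromosome 6 the median was 0.87, with 4 falls. Uhrf1, which couples DNA methylation to H3K9 marks, was at 19.2, 12.7 and 14.7 in QKO and 2.25, 3.53 and 3.03 in LBRKO (log2 change 2.37). The H3K9 methyltransferase genes Ehmt2 and Setdb1 rose by 1.87 and 1.49, and Trim28, a corepressor that recruits Setdb1, rose by 1.64. Pphln1 and Atf7ip, partners of the HUSH complex and of Setdb1, fell by 0.88 and 0.84. Of 15 genes for transposon control, 3 rose and 8 fell, with a median of -0.37, or -0.15 without the member on chromosome 6. Dnmt1, the maintenance DNA methyltransferase, rose by 1.86 and Tdrd5, a piRNA pathway gene, fell by 1.49.

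Of 19 genes of naive pluripotency, 13 rose and 2 fell, with a median of 0.63, or 0.81 without the 2 members on chromosome 6. When scaled by the genes with least LMNB1, 6 were higher and 7 lower (median -0.06), and on the spike-in scale 2 and 10 (median -0.63). Klf2 was at 6.37, 4.12 and 6.47 in QKO and 0.672, 1.22 and 1.13 in LBRKO (log2 change 2.41). Pou5f1 (Oct4) was at 6.89, 4.79 and 6.03 against 0.977, 1.73 and 1.64 (1.99), and Sox2 rose by 1.89. These are core transcription factors of the naive state, and their libraries did not overlap between genotypes. Nanog lies on chromosome 6, whose genes had a median change of -0.82. It was at 6.31, 4.13 and 6.48 against 5.59, 4.51 and 4.96, and its change of 0.14 was not called (limma, adjusted p = 0.435). The members that fell were Nr5a2 (-0.68) and Klf5 (-0.45), both transcription factors of the same network.

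Primed epiblast and primitive endoderm genes mark the cell types that naive cells can turn into. Of 17 primed genes, 6 rose and 3 fell, with a median of 0.21 (-0.48 when scaled by the genes with least LMNB1). Etv4, a target of FGF signaling, rose by 2.17, and Fgf5 fell by 1.03. Dnmt3b had a change of -0.07 that was not called (limma, adjusted p = 0.678). Of 17 primitive endoderm genes, 2 rose and 7 fell, with a median of -0.24. Srgn, a proteoglycan gene, rose by 1.06. Gata6 had a change of -0.26 that was not called (limma, adjusted p = 0.111).

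Very long neuronal genes, silent in mESCs and a typical part of lamina-associated chromatin, nearly all lost share. Of 25, 23 fell and none rose, with a median of -0.77 (-2.14 on the spike-in scale). Without the 3 members on chromosome 6 the median was -0.68, with 20 falls. Macrod2 was at 121, 156 and 125 in QKO and 400, 293 and 315 in LBRKO, a fall of 1.33 on the log2 scale. Cntnap2, on chromosome 6, was at 136, 167 and 140 against 308, 274 and 271, and fell by 0.95. Rbfox1, a neuronal splicing factor, was an exception: it was at 128, 166 and 139 against 120, 151 and 124, with a change of 0.13 that was not called (limma, adjusted p = 0.22).

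Tandem gene families that are silent in most cells varied in the share fallen. Among those not mostly on chromosome 6, it ran from 87.0% for Pramel to 14.9% for keratin-associated protein genes, beside 34.0% over all genes. Of 54 Pramel genes tested, 47 fell and none rose (median -1.23). Of 152 class I olfactory receptor genes 106 fell and none rose (median -0.84), and of 1170 class II genes 434 fell and 16 rose (median -0.44). The share fallen was 69.7% in class I and 37.1% in class II, the latter near the 34.0% over genes of all lengths. Of 53 serpins of clades a and b 45 fell (median -0.84), and of 113 Vmn2r pheromone receptors 61 fell and 4 rose (median -0.43). Of 70 defensins 22 fell (median -0.44), a share of 31.4% that is near the 34.0% over genes of all lengths. The share fallen over all genes grew with length. It was 18.2% for genes of 1 bin (median -0.22), 25.2% for 2 to 9 (median -0.20) and 67.2% for 50 or more. The families were not matched for length. Of 94 keratin-associated protein genes tested, of 110 in the table, 14 fell and 2 rose (median -0.29). Of 324 immunoglobulin V segments 193 fell (median -0.77), and of 147 T cell receptor V segments 60 fell (median -0.64). On chromosome 6 lie 144 and 34 of these segments, and off it 124 and 40 fell. No serpin, defensin or V segment rose. The strongest fall among class I and class II olfactory genes was in Or56b34 (-1.83) and Or10z1 (-2.11). Or10z1 was at 0.250, 0.277 and 0.300 in QKO and 1.53, 1.44 and 1.37 in LBRKO, and its spike-in mean in QKO, 0.375 ± 0.048, lay under that of IGG, 0.524. Members of these families resemble each other, so reads may be split among copies. The filter on low values was passed by 152 of 160 class I, 1170 of 1223 class II and 113 of 125 Vmn2r genes. Of the V segments, 324 of 346 immunoglobulin and 147 of 168 T cell receptor segments passed. The filter uses the mean over libraries that include LBRKO and WT, so a low gene could pass through a group where it was high. The counts of falls and the medians above share this limit.

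Of the next 3 families, 2 lie mostly on chromosome 6 and the third in part. All 27 killer lectin-like receptor genes tested lie there, and 26 fell (median -1.60). Of 34 bitter taste receptor genes 24 fell (median -0.95), but all 24 were among the 32 on chromosome 6. The median of the others was -0.33. The filter on low values was passed by 148 of 230 Vmn1r genes. It uses the mean over libraries that include LBRKO and WT, so a low gene could pass through a group where it was high. The share left out was larger than in the families above, so no count of falls is given, and the medians share this limit. The 148 had a median of -0.34, and 47 of them lie on chromosome 6. Off that chromosome the median was -0.14. Klrg2 of the lectin-like family, a gene with little LMNB1, was at 4.03, 3.57 and 3.98 in QKO and 4.15, 3.67 and 3.58 in LBRKO.

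Of 79 ribosomal protein genes 60 rose and 3 fell, with a median of 1.12. When scaled by the genes with least LMNB1, 35 were higher and 11 lower (median 0.42), and on the spike-in scale 14 and 21 (median -0.12). Rpl13a was at 5.28, 4.62 and 5.31 in QKO and 0.435, 0.731 and 0.438 in LBRKO, a rise of 3.10 that was also a rise on the spike-in scale (1.80). The filter on low values was passed by 28 of 72 replication-dependent histone genes. That filter uses the mean over libraries that include QKO, so a low gene could pass through the group where it was high, and no count of rises is given. H4c9, the member with the highest change, was at 1.39, 1.07 and 1.33 against 0.107, 0.128 and 0.171, a rise of 2.65. H1f8, the oocyte linker histone, on chromosome 6, is in the list although it is not replication-dependent. It had the lowest change and fell by 1.27 on the log2 scale. Histone and ribosomal protein genes have close copies and pseudogenes, so these values too are uncertain.

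Hox genes and clustered protocadherins, which act in development, had no member that fell on the relative scale, although 11 and 28 of them fell when scaled by the genes with least LMNB1. Of 39 Hox genes, with a median GC content of 52.1%, 21 rose, with a median of 0.79 (0.05 when scaled by the genes with least LMNB1, -0.57 on the spike-in scale). Hoxb7 was at 1.55, 1.66 and 1.06 in QKO and 0.237, 0.359 and 0.295 in LBRKO, a rise of 1.99. The 28 Hox genes off chromosome 6 had a median of 1.11. Of 58 clustered protocadherins, with a median GC content of 45.2%, 22 rose, with a median of 0.13 that turned to -0.50 when scaled by the genes with least LMNB1. Pcdhgc5 was at 19.6, 14.8 and 19.5 against 5.14, 5.23 and 6.12, a rise of 1.69, and Pcdhb3 had a change of -0.55 that was not called (limma, adjusted p = 0.0607).

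Mixed families had members at both ends. Of 355 Zfp genes tested, of 395 in the table, 152 rose and 92 fell. Their median of 0.18 turned to -0.54 when scaled by the genes with least LMNB1. The limit of the filter given for the histone genes applies to these counts too. Zfp553 was at 8.28, 5.89 and 7.90 in QKO and 0.809, 0.987 and 1.35 in LBRKO, and Zfp422, on chromosome 6, was at 0.267, 0.759 and 0.456 against 2.25, 2.17 and 2.31. Their changes were 2.73 and -2.11. Of 72 Cyp genes 20 rose and 25 fell (median -0.06, or 0.14 when scaled by the library mean), from Cyp2r1, the vitamin D 25-hydroxylase, at -1.48 to Cyp2t4 at 1.85. When scaled by the genes with least LMNB1, 3 Cyp genes were higher and 44 lower (median -0.78), and on the spike-in scale 0 and 57 (median -1.39). The filter was passed by 947 of 1189 microRNA genes, and no count of rises is given for them, for the reason given for the histone genes. A microRNA hairpin touches 1 or a few bins, so its value is that of the surrounding kilobases.

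Chromosome 6 stood apart from the other chromosomes. Its 4092 tested genes had a median change of -0.82, with 65.6% fallen and 3.40% risen, and -0.72 when only the 2 middle LMNB1 classes of 4 were taken. The next lowest medians were those of chromosomes 3 and 1, both -0.42, and the highest that of chromosome 11, 0.13, followed by 0.11 for chromosome 15 and 0.10 for chromosome 19. Those last 3 turned negative in the middle classes, to -0.11, -0.08 and -0.14. Relative to all genes, the median per-bin signal of chromosome 6 was -0.35, -0.25 and -0.26 on the log2 scale in QKO and 0.53, 0.50 and 0.48 in LBRKO. It was 0.28, 0.39 and 0.27 in WT, 0.01, 0.05 and 0.03 in TKO, and 0.16, 0.12 and 0.14 in WT IGG. The QKO libraries were the lone naive libraries well below 0 on this chromosome. QKO was about as low on chromosomes 3 and 14 (-0.39 to -0.25), where LBRKO lay between -0.05 and 0.03. Chromosome 8, by contrast, was at 0.41 to 0.57 in every naive LAP2B and IGG library. Copy number of chromosome 6 in the QKO and LBRKO lines and LAP2B binding there cannot be told apart, because IGG was run in WT alone. Leaving chromosome 6 out left 14490 rises and 21244 falls.

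Neighboring genes were grouped into windows, which were ranked by the median of these same changes. High counts of rises or falls in the extreme windows are thus fixed by the choice. Neighboring genes can also share bins and reads. Of 1266 windows of 2 Mb, 997 (78.8%) had a median below 0. The lowest was chromosome 6, 96000001 to 98000000, with a median of -1.73 and all 33 of its genes fallen, among them Frmd4b and Mitf, the pigment cell regulator. Of the 6 lowest windows 5 lay on chromosome 6, and the other, chromosome 1, 194000001 to 196000000, holds Plxna2 and had all 31 genes fallen (median -1.59). The highest was chromosome 10, 80000001 to 82000000, with a median of 2.32 and 152 of 160 genes risen, among them Efna2 and Zbtb7a. Chromosome 7, 44000001 to 46000000, followed with a median of 2.16 and 183 of 190 genes risen, Prmt1 among them. The window of the Hoxb cluster and Mllt6, chromosome 11, 96000001 to 98000000, had a median of 1.90 and 154 of 155 genes risen. The 6 highest windows had little LMNB1 (0.169 to 0.189 per bin), and the 6 lowest 0.600 to 1.31.

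**Figure D4:**
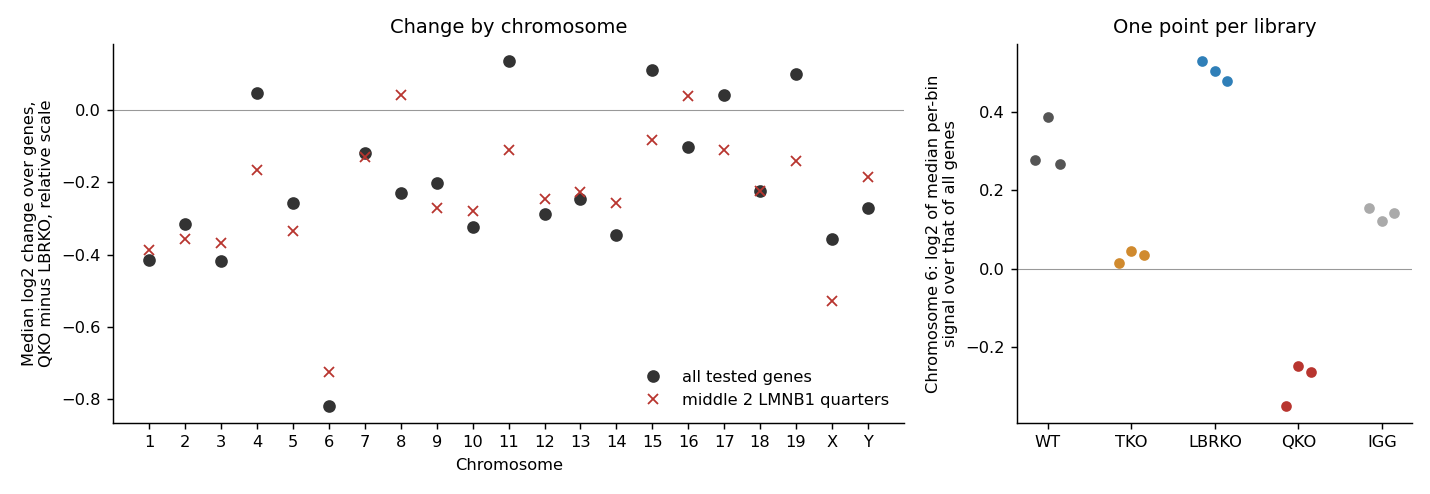
Left, median log2 change QKO minus LBRKO (relative scale) over the genes of each chromosome, for all genes and for the 2 middle LMNB1 classes of 4. Right, log2 of the median per-bin signal of chromosome 6 over that of all genes, 1 point per naive library; QKO lies between -0.35 and -0.25 and LBRKO between 0.48 and 0.53.

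Transposable element (TE) families were compared on the mean over their copies, relative to the median family of a library. Of 1241 families, 462 (37.2%) rose and 306 (24.7%) fell, and the libraries did not overlap for 464 with QKO higher (37.4%) and 296 with QKO lower (23.9%). On the spike-in scale 1240 (99.9%) were called lower, and the family mean was 0.381 ± 0.024 in QKO and 1.06 ± 0.22 in LBRKO (SD, n = 3). The split between rises and falls rests on the scaling, since scaling by the median gene gave 23 rises and 1093 falls. Differences between families below are therefore differences in share among TEs.

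SINEs, short elements concentrated in gene-rich chromatin, rose as a class: 33 of 34 families did and none fell (median 0.36). B1_Mm was at 1.59, 1.38 and 1.51 in QKO and 1.08, 1.06 and 1.11 in LBRKO (0.43), and B2_Mm2 rose by 0.45. The rise of B1_Mm was 0.01 and not called when scaled by the median gene. Of 149 families of L1, the LINE group typical of AT-rich lamina-associated DNA, 13 rose and 78 fell (median -0.08). L1MdA_I was at 3.24, 2.88 and 3.39 against 2.59, 2.71 and 2.41, a rise of 0.29 that turned to -0.03 with the median over copies, -0.14 when scaled by the median gene and -0.05 by the library mean. The 5 older L1MdA subfamilies (III to VII) fell by 0.08 to 0.12, L1MdA_II had a change of 0.06 that was not called (limma, adjusted p = 0.172), and L1MdTf_I had a change of -0.07 that was not called (limma, adjusted p = 0.314). L1MdTf_III was at 1.95, 2.04 and 2.01 against 2.29, 2.30 and 2.12, a fall of 0.16 on the log2 scale (limma, adjusted p = 0.0046).

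LTR elements leaned to rises, with 326 of 630 families risen and 99 fallen (median 0.08), and among the ERVK group 198 rose and 9 fell of 285. Of 25 IAP families, active retrovirus-like elements kept silent by H3K9 methylation, 20 rose and none fell (median 0.20). IAPEz-int was at 1.95, 1.98 and 2.10 in QKO and 1.31, 1.78 and 1.42 in LBRKO, a rise of 0.41 that was -0.01 when scaled by the median gene. MERVL-int, the element of early embryos, was at 2.25, 2.07 and 2.19 against 2.04, 2.13 and 1.94, and its change of 0.09 was not called (limma, adjusted p = 0.0666). It turned to -0.33 and -0.25 when scaled by the median gene and the library mean. DNA transposons had 56 rises and 98 falls among 303 families.

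Satellites rose in 7 of 8 families. GSAT_MM, the major satellite of pericentromeres, was at 955, 1169 and 1169 in QKO and 453, 910 and 681 in LBRKO, with a change of 0.74 ± 0.21 (SE; limma, adjusted p = 0.0062). On the spike-in scale its mean was 194 ± 18.2 in QKO, 432 ± 161 in LBRKO and 189 in IGG. ZP3AR, another satellite, was at 2.64, 2.13 and 2.48 against 0.979, 1.20 and 1.12 (1.07).

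FordPrefect, a hAT DNA transposon with 270 copies, was the family with the largest rise and the lone family higher on the spike-in scale. It was at 8.46, 6.64 and 11.1 in QKO and 1.12, 1.38 and 1.22 in LBRKO, a change of 2.69 ± 0.13 (SE; limma, adjusted p = 7.07e-11). Its spike-in mean was 1.56 ± 0.47 in QKO, 0.780 ± 0.142 in LBRKO and 1.27 in IGG. With the median over copies in place of the mean, the change was 0.12 and not called. The largest falls among families of at least 100 copies were small: L1M3de (-0.30), Tigger12c (-0.30) and L1MEj (-0.30).

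How the effect of lamin loss differs where LBR is present was asked by setting QKO minus LBRKO beside TKO minus WT, which share no libraries. The lines are related, since QKO was made from TKO cells and LBRKO from WT cells, so a difference between the TKO and WT lines enters both. These are 4 lines, and LBR, clone and karyotype cannot be told apart in the difference between the comparisons. Total signal went down in both, by -1.58 without LBR and -0.96 with it, and the difference of -0.63 had p = 0.085 in an exact permutation of LBR status (400 assignments, adjusted 0.17). The lamina contrast went down by -1.59 and -0.97, and the difference of -0.62 had an exact permutation p of 0.455 (adjusted 0.607). The change in rank correlation with LMNB1 was -0.513 without LBR and -0.525 with it, a difference of 0.012 (exact permutation p = 0.965). For IGG it was 0.071 and 0.361, a difference of -0.29 (exact permutation p = 0.08, adjusted 0.17; adjusted p = 0.0028 as a term of a linear model). The permutation also shuffles the effect of LBR itself, which widens its spread. Without WT replicate 2 the difference in level was -0.80.

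Across genes the changes correlated at Pearson's r 0.72 (a description, with n = 70381 genes that are not independent). In TKO against WT 15302 genes (21.7%) were called higher and 19486 (27.7%) lower. Called in both comparisons were 24644 genes, 63.9% of those called without LBR and 70.8% of those called with it, of which 10749 were higher in both, 13235 lower in both and 660 opposite. The difference between the 2 changes was called for 13778 genes, 5597 (7.95%) upward and 8181 (11.6%) downward without LBR, and 1323 of the latter lay on chromosome 6. That split was 3945 and 11026 when libraries were scaled by their mean, 2375 and 13185 by the genes with least LMNB1, and 168 and 19634 on the spike-in scale. In the class with least LMNB1 1232 of 7032 genes differed upward and 198 downward, and in the class with most 151 and 1149. The same libraries enter this difference and the main comparison, so the 10 largest rises, all of which were called in it, and the 10 largest falls, of which 8 were, are not independent of it. On the separate libraries of the related TKO and WT lines all 10 rises were called higher (1.01 to 1.86) and all 10 falls lower (-2.48 to -0.83).

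Differences were ranked among protein-coding genes of at least 10 bins, taken at least 1 Mb apart. The largest upward differences were in Renbp (2.06), Srsf3, a splicing factor (2.02), Pcgf2, a Polycomb ring protein next to Mllt6 (1.93), Efna2, an ephrin ligand (1.87), and Senp3 (1.86). Mllt6 itself differed by 1.874, above Efna2 at 1.873, and was left out because it lies next to Pcgf2. Srsf3 was at 7.09, 5.77 and 6.98 in QKO and 0.611, 0.897 and 1.09 in LBRKO, a rise of 2.85, while TKO minus WT was 0.83. The largest downward differences were in Tigar, a regulator of glycolysis (-2.12), Nutm1, a testis gene (-1.93), Prps2, an enzyme of nucleotide synthesis (-1.88), Gpr27, an orphan receptor (-1.77), and Ldhb, a lactate dehydrogenase (-1.75). Tigar was at 1.43, 1.70 and 1.29 in QKO and 5.63, 5.37 and 5.17 in LBRKO, a fall of 1.82 on the log2 scale, while TKO minus WT was 0.30 and not called (limma, adjusted p = 0.142). Its mean was 1.66 in WT and 2.06 in TKO, so LBRKO stood apart from the other naive genotypes. In each of these genes with a downward difference LBRKO had the highest mean of the naive genotypes. Tigar, Gpr27 and Ldhb lie on chromosome 6, where 1323 of 4092 genes differed downward and 13 upward.

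**Figure D5:**
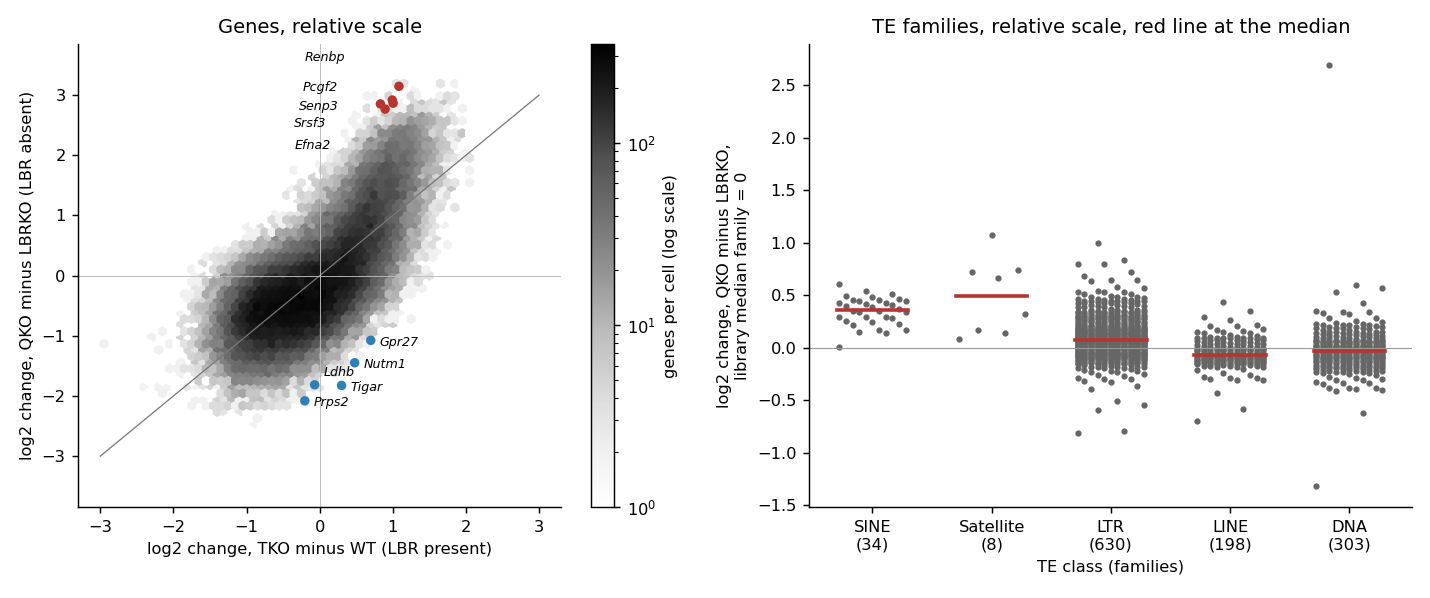
Left, log2 change per gene with lamin loss where LBR is absent (QKO minus LBRKO) against that where LBR is present (TKO minus WT), relative scale, shaded by genes per cell (log scale), with the line of equal change drawn. Marked are the 5 largest upward and 5 largest downward differences among protein-coding genes of at least 10 bins, taken at least 1 Mb apart. Right, log2 change of each TE family in 5 classes with the class median in red, 0.36 for SINE and -0.07 for LINE; 68 families of other classes are not drawn.

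Among gene groups, the difference between the 2 changes was called upward for 22 of 79 ribosomal protein genes and downward for 4. It was upward for 18 of 58 protocadherins and 32 of 113 Vmn2r genes, and downward for 0 and 3, beside 7.95% upward and 11.6% downward over all genes. For Vmn2r genes upward stands for a smaller fall, with medians of -0.43 without LBR and -0.87 with it. Downward were 8 of 27 killer lectin-like receptors and upward none, but all lie on chromosome 6, where 1323 of 4092 genes differed downward. Of 19 naive pluripotency genes 5 differed downward and 2 upward, and of 17 primed epiblast genes likewise 5 and 2. Klf5 differed by -1.34, with TKO minus WT at 0.89, and Tmpo by -0.997, with TKO minus WT at 0.19 and not called (limma, adjusted p = 0.168). For TE families the difference was called in 168, 99 (7.98%) upward and 69 (5.56%) downward, led by FordPrefect (1.02), MTC-int (0.59), ZP3AR (0.42), RMER16C (0.38) and LTRIS3 (0.37) on one side and Tigger12c (-0.35) on the other. Scaling by the median gene gave 65 upward and 1 downward, scaling by the library mean called 2 families in all, and the spike-in scale 8. Without 1 library the 168 came to 87 (QKO replicate 3), 97 (LBRKO replicate 3) and 107 (LBRKO replicate 1 or WT replicate 1).

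The same pair of genotypes was compared in EpiLCs, from separate libraries of the same lines, so clone and karyotype enter both stages. The paper did not use LAP2B to mark lamina-associated chromatin in EpiLCs, because in WT EpiLCs its signal lay both inside and outside such chromatin. It also reports a severe loss of QKO cells during the change to EpiLCs. In EpiLCs 8991 genes (12.8%) were called higher and 12406 (17.6%) lower, and the changes correlated with those in naive cells at r 0.77 across genes. Both stages called 18661 genes, 48.4% of those called in naive cells and 87.2% of those called in EpiLCs, with 161 opposite. All 10 largest naive rises and all 10 largest falls were called in the same direction in EpiLCs on the relative scale. On the spike-in scale none of these rises was called higher in EpiLCs, with changes from 0.11 in Mlec to 0.63 in Renbp, while all 10 falls were called lower. A difference between stages was called for 11960 genes, 5792 (8.23%) upward and 6168 (8.76%) downward in naive cells. On the spike-in scale it was called for 5402 genes, 273 upward and 5129 downward. Mllt6 rose by 3.35 in naive cells and 1.14 in EpiLCs, a difference of 2.21, and Zbtb7a by 3.23 and 1.23, a difference of 2.01. In the other direction were Pramel61 (-1.91 in naive cells and 0.26 in EpiLCs) and Ndrg1, a stress-responsive gene (-1.44 and 0.02). The serpins had a median of -0.84 in naive cells and 0.01 in EpiLCs, and the defensins of -0.44 and 0.01, beside -0.25 and -0.04 over all genes. Among other silent families the EpiLC median was 0.03 for Vmn1r, -0.05 for keratin-associated protein, -0.10 for Vmn2r and -0.21 for class II olfactory genes. It was -0.39 for T cell receptor V segments, -0.51 for Pramel genes, -0.55 for immunoglobulin V segments, -0.65 for class I olfactory genes, -0.84 for killer lectin-like receptors and -0.89 for bitter taste receptors. Chromosome 6 had an EpiLC median of -0.62 over all its genes. It holds all the killer lectin-like receptors, most bitter taste receptors and 144 of the immunoglobulin V segments.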

How the data were processed

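CUT&RUN with a LAP2B antibody was compared between 3 naive QKO and 3 naive LBRKO libraries, each made from 200000 cells collected at 48 h. Following the methods of the study, the authors mapped reads to mm39 (Bowtie2 2.3.5.1, SAMtools 1.10 and deepTools per the labels), kept properly paired primary alignments, removed duplicates, mitochondrial reads and unassembled contigs, and scaled RPKM coverage by yeast spike-in reads (sacCer3). Blacklisted regions were excluded from the gene values only. The deposited signal of a gene is read as the sum of scaled coverage over the 1 kb bins it touches, worked out from the values because the joining step is not described, and is not divided by length. All values were whole multiples of 1 read (tolerance 0.05 of a step), so reads were recovered. Reads in a bin that several genes touch count for each gene.

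Tables held 78202 genes, 78131 (99.9%) with GENCODE M39 coordinates (GRCm39), and 3793386 TE copies in 1241 families, tested on the mean over copies. For TEs the methods name wider bins than 1 kb, and the width behind the deposited TE values was not settled here, so the value of a copy includes the sequence around it. The lowest 0.1 of genes by mean over the 24 LAP2B libraries was left out, leaving 70381. A pseudocount of 0.1 of the table median was added before log2, so fold changes of low genes are understated. All 24 LAP2B libraries entered 1 limma 3.58.1 model (R 4.3.3; eBayes with trend) of 8 group means without a block. Tests were two-sided, with Benjamini-Hochberg adjustment across every gene (or every family) tested. Library measures were compared by exact permutation. Same-numbered QKO and LBRKO libraries did not deviate together (correlations -0.07, -0.01 and 0.04), so numbers were not taken to pair samples. Alternatives were the pseudocount, the filter, other scalings, edgeR 4.0.16 on recovered reads, minimum bins, left-out chromosomes and each left-out replicate. Scripts were tested on simulated data and ran in Python 3.11.15 (numpy 2.4.6, scipy 1.17.1, pandas 2.3.3, matplotlib 3.10.9).

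Genes named were the 10 largest rises and falls among called protein-coding genes of at least 10 bins with a non-clone symbol, without overlap of libraries and at least 1 Mb apart, the knocked-out genes and Tmpo, members of lists of up to 25 genes, the highest and lowest members of longer lists, and the 5 largest differences each way between lamin effects under the same limits. TE families were the 8 largest each way with at least 100 copies, and families fixed by name. The comparison, the 26 gene lists and the rules were chosen with earlier results of these data known. The 2 H3K9me3 samples were not analysed here.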

Additional observations from a re-analysis of the deposited data

Results flagged for a closer look

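By an interaction contrast in limma, QKO minus LBRKO differed from TKO minus WT for 13778 genes and 168 TE families, and QKO minus LBRKO differed between naive cells and EpiLCs for 11960 genes. The first contrast is between 4 lines, so LBR, clone and karyotype cannot be told apart in it. The genes and families below were picked for the size of these differences, with genes taken at least 1 Mb apart. Relative to TKO minus WT, the log2 change was higher by 2.06 in Renbp, 2.02 in Srsf3, 1.93 in Pcgf2, 1.87 in Efna2 and 1.86 in Senp3. The difference was -2.12 in Tigar, -1.93 in Nutm1, -1.88 in Prps2, -1.77 in Gpr27 and -1.75 in Ldhb. Tigar, Gpr27 and Ldhb lie on chromosome 6, and the part of copy number in their values was not tested.

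Among TE families the difference was 1.02 in FordPrefect, 0.59 in MTC-int, 0.42 in ZP3AR, 0.38 in RMER16C and 0.37 in LTRIS3. It was -0.35 in Tigger12c, -0.25 in L1MEj, -0.22 in L1ME3F, -0.21 in Tigger6a and -0.21 in Tigger9b.

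Between stages, the change in naive cells exceeded that in EpiLCs by 2.21 in Mllt6, 2.01 in Zbtb7a, 1.98 in Ttc9b, 1.94 in Coil and 1.90 in Mlec. The difference was -2.17 in Pramel61, -1.58 in Pramel35, -1.46 in Ndrg1, -1.44 in Slc32a1 and -1.42 in Pramel57. The 3 Pramel genes have near-identical relatives, so their values are uncertain.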

How the results depend on the processing

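Of 2306 alternative values for 138 named genes, families and differences, 2246 kept direction and side of the threshold. Direction turned for Klrg2 (-0.70), Lbr (-0.62), Nanog (-0.59) and Rbfox1 (-0.61) when scaled by the least-LMNB1 class of 4 classes of genes, for IAPEz-int (-0.014) by the median gene, for L1MdA_I with the median over copies (-0.029), by the median gene (-0.137) and by the mean (-0.051), and for MERVL-int by the last 2 of these (-0.334 and -0.251). When not divided by bins, the difference in rank correlation turned to -0.029 for IGG and was -0.145 for LMNB1. With classes from EpiLC LMNB1 the difference in lamina contrast was -0.937. Chromosomes 11, 15 and 19 turned to -0.112, -0.084 and -0.141 in the 2 middle LMNB1 classes and to -1.02, -1.02 and -1.04 on the spike-in scale. With genes of at least 10 bins, which leaves fewer genes, 21238 were called on the relative scale (6986 higher, 14252 lower) and 25255 on the spike-in scale (843 and 24412). Leaving out the lowest 0.5 of genes gave 33521 on the spike-in scale (31990 lower). Scaling by the least-LMNB1 class gave 7006 higher and 45008 lower. TE families came to 221 (153 and 68) with the median over copies, 23 and 1093 scaled by the median gene, and 28 and 893 by the mean. Differences with LBR came to 168 genes higher and 8 families on the spike-in scale, and 2 families scaled by the mean. Those between stages came to 5402 genes (273 higher) on the spike-in scale. As a term of a linear model, the difference in lamina contrast of -0.62 had p = 0.0313 (adjusted 0.0625), against an exact permutation p of 0.455. Other than by scaling, the cause of these changes was not tested.

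Leaving out 1 replicate gave 33767 to 37999 genes on the relative scale (13300 to 14389 higher, 20434 to 23610 lower) and 53103 to 57011 on the spike-in scale, of which 1117 higher without LBRKO replicate 1, 1331 without QKO replicate 1, at most 2575, and 50610 to 55894 lower. TE families came to 658 to 798 (421 to 476 higher, 237 to 322 lower). Differences with LBR came to 10839 to 14545 genes (4605 to 5890 higher) and 87 to 224 families, with 107 without LBRKO replicate 1 and without WT replicate 1, 97 without LBRKO replicate 3 and 87 without QKO replicate 3. Those between stages came to 8201 to 14754 genes (4080 to 6536 higher). The level difference was -1.68 to -1.47, that of the lamina contrast -1.69 to -1.48, that of rho with LMNB1 -0.551 to -0.463 and with IGG 0.040 to 0.097. The differences between effects were -0.80 (without WT replicate 2, exact permutation p = 0.015) to -0.44 for the level and -0.78 to -0.50 for the contrast. With the replicate number as a block, 38559 genes (14633 higher, 23926 lower) and 753 families were called, and the block changed no call of a named gene or count by over 1.5 times. Leaving out chromosome 6 and scaling by all genes were added after seeing the data. With 3 libraries against 3, no exact p can go under 0.1.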
